A study of Danio rerio with 6 samples.

Results

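The 8 genes described here belong to inflammatory signalling, the AP-1 transcription factors and the interferon response of the zebrafish. They are il1b, ccl34a.4, irg1l, ptgs2a, fosl1a, nfkbiab, isg15 and irf7, 8 of 31452 genes listed per library. Of these, 7 were taken by the symbol in the count tables and ccl34a.4 by its identifier, ENSDARG00000090873, which the tables list as si:ch211-122l24.4. They were chosen by their levels in these same EWSR1-ERG and wild-type pools, with attention to the spread between the EWSR1-ERG pools. Those levels and that spread are thus a description and carry no test. RNA was sequenced from whole embryos at 3 days post fertilisation, in pools of 15 embryos.

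The EWSR1-ERG group held 3 pools of embryos that expressed the fusion in neurons. They came from crosses of Tg(14xUAS:GFP-EWSR1-ERG) fish with fish carrying the enhancer trap Et(E1b:Gal4-VP16)s1101t and the reporter Tg(UAS:Kaede) s1999t. The control group held 3 pools of wild-type siblings, described in the labels as not expressing EWSR1-ERG; the labels do not say whether they carried the driver or the reporter. EWSR1-ERG joins an RNA-binding protein gene to an ETS transcription factor gene and occurs in Ewing sarcoma. No listed gene is the fusion, GFP, Kaede or Gal4, so the transgene itself was not measured. The labels call the pools biological replicas without saying whether clutches differed. The p-values thus set the difference between the groups against the spread between these pools and may not extend to other clutches. Wild-type replicates 1 and 2 were much alike, with a mean squared difference per gene of 1.97 times that of counting error alone. Against wild-type replicate 3 this value was 9.38 for replicate 1 and 5.77 for replicate 2. Whether the 3 wild-type pools are equally independent was not tested. Levels are CPM, counts scaled to the size of each library.

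In vertebrates, damage or microbial products act through pattern receptors and cytokine receptors on NF-kappaB, a transcription factor that IkappaB proteins hold in the cytoplasm. Released NF-kappaB, often with the AP-1 dimers of Fos and Jun proteins, switches on cytokines such as interleukin 1 beta, chemokines that draw leukocytes, and the cyclooxygenase that starts prostaglandin synthesis. Interferons act through other receptors and switch on a further set of genes, among them isg15 and irf7.

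Library totals ran from 4771843 to 6474430 counts in 5 libraries, and EWSR1-ERG replicate 3 held 13338802. The name of that replicate's file also gives another sequencing lane than the other 5. All 8 genes passed the filter on low counts, which kept 17557 genes, but il1b, fosl1a, isg15 and ccl34a.4 passed only through the EWSR1-ERG pools. In 7 of the 8 genes every EWSR1-ERG pool lay above every wild-type pool, as did 17.1% of all tested genes. In nfkbiab every EWSR1-ERG pool lay below every wild-type pool, as did 18% of tested genes. The label of an inflammatory group thus covered 7 genes that were higher and 1 inhibitor gene that was lower. In RNA from whole embryos, more cells of a type and more RNA per cell cannot be told apart.

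**Figure D1:**
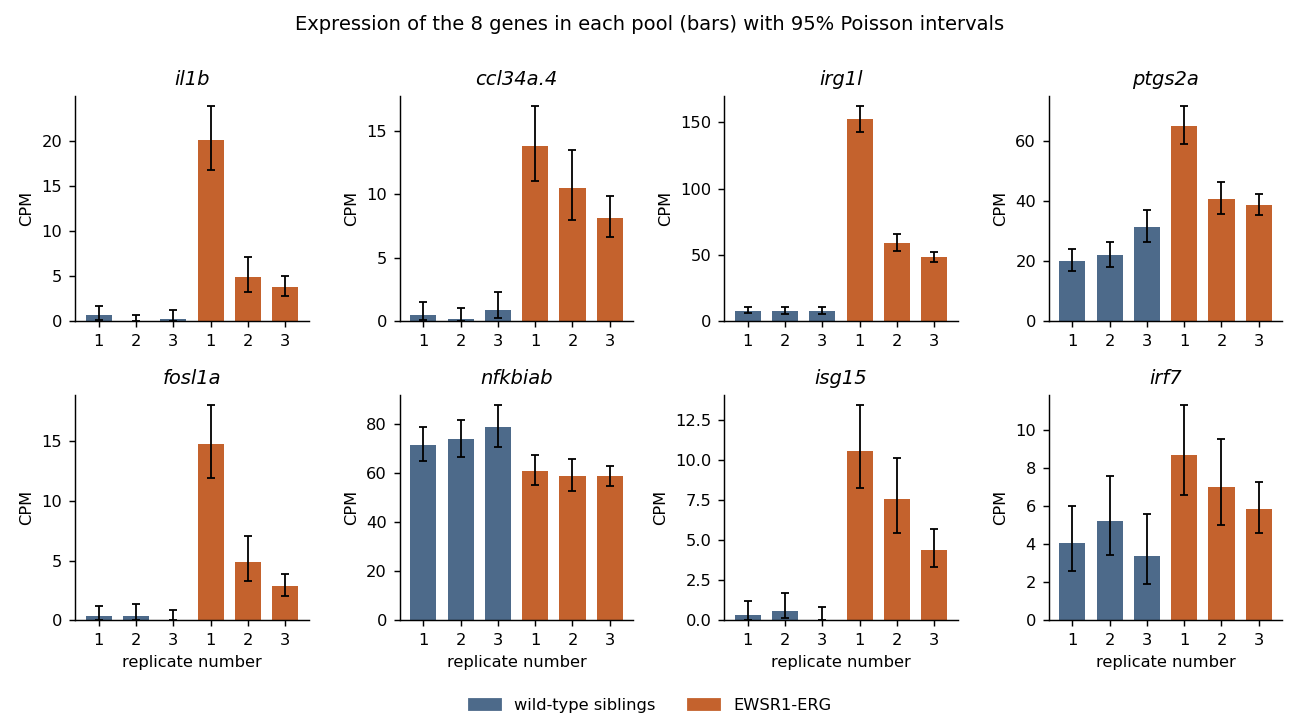
Expression in CPM (vertical axes, from 0) of each of the 8 genes in the 3 wild-type and 3 EWSR1-ERG pools, numbered by replicate; bars are single pools and error bars are exact 95% Poisson intervals of the count. EWSR1-ERG replicate 1 is the highest EWSR1-ERG pool in each panel, from 20.1 CPM against 4.90 and 3.84 CPM in il1b to 60.8 against 58.8 and 58.6 CPM in nfkbiab.

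The cytokine gene il1b (ENSDARG00000005419, chromosome 10 of the Zv9 build) encodes interleukin 1 beta, a secreted proinflammatory cytokine. It had 4, 0 and 1 counts in wild-type replicates 1, 2 and 3, and 131, 28 and 50 counts in the EWSR1-ERG pools. As CPM, the wild-type pools stood at 0.677, 0 and 0.226 and the EWSR1-ERG pools at 20.1, 4.90 and 3.84. The lowest EWSR1-ERG pool lay 5.67-fold above the highest wild-type pool, so the groups were well apart, while replicate 1 stood far above the other EWSR1-ERG pools. Its 95% Poisson interval, 16.8 to 23.8 CPM, did not reach those of replicate 2 (3.26 to 7.08) and replicate 3 (2.85 to 5.06), which overlapped each other. These intervals cover counting error only. The mean was 9.60 ± 9.07 CPM against 0.301 ± 0.345 (SD, n = 3 per group), and the fitted log2 fold change was 4.77 (SE 1.21). It was 3.65 without EWSR1-ERG replicate 1 and 6.24 without wild-type replicate 1, which held 4 of the 5 wild-type counts.

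The chemokine gene ccl34a.4 (chromosome 2) encodes a small secreted protein of the CC family, which attracts leukocytes. Its wild-type pools had 3, 1 and 4 counts, or 0.508, 0.194 and 0.904 CPM. Its EWSR1-ERG pools had 90, 60 and 106 counts, or 13.8, 10.5 and 8.14 CPM. The lowest EWSR1-ERG pool was 9.01-fold above the highest wild-type pool, the widest gap among the 8 genes. The intervals of EWSR1-ERG replicate 1 (11.08 to 16.9 CPM) and replicate 3 (6.66 to 9.84) did not overlap. The mean of 10.8 ± 2.83 CPM was 20.2-fold that of the wild-type pools, 0.535 ± 0.356 (SD, n = 3 per group), with a fitted log2 fold change of 4.31 (SE 0.404). Leaving out any of the 6 pools gave values from 3.93 to 4.82.

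The enzyme gene irg1l (ENSDARG00000062788, chromosome 14) is named for its likeness to irg1, whose mammalian counterpart makes the metabolite itaconate in activated macrophages. Wild-type pools were nearly equal, at 7.96, 7.74 and 7.46 CPM. The EWSR1-ERG pools stood at 152, 59.0 and 48.1 CPM, from 994, 337 and 626 counts. All were above the wild-type pools by at least 6.04-fold, and replicate 1 was again far above the rest, beyond counting error (142.9 to 162 CPM against 52.8 to 65.6 and 44.4 to 52.0). The means were 86.4 ± 57.2 and 7.72 ± 0.252 CPM (SD, n = 3 per group). The fitted log2 fold change was 3.47 (SE 0.613), and 2.77 without EWSR1-ERG replicate 1.

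The cyclooxygenase gene ptgs2a (ENSDARG00000004539, chromosome 2) encodes the inducible enzyme that commits arachidonic acid to prostaglandins. It stood at 20.1, 22.1 and 31.4 CPM in wild-type and 65.2, 40.9 and 38.9 CPM in EWSR1-ERG pools. The groups lay close, with the lowest EWSR1-ERG pool 1.24-fold above the highest wild-type pool, replicate 3. The mean was 48.3 ± 14.7 against 24.5 ± 6.02 CPM (SD, n = 3 per group), 1.97-fold higher, with a fitted log2 fold change of 0.98 (SE 0.225).

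The AP-1 gene fosl1a (ENSDARG00000015355, chromosome 14) encodes a Fos-related partner of Jun proteins. It had 2, 2 and 0 counts in the wild-type pools, or 0.339, 0.387 and 0 CPM, and 96, 28 and 37 counts in the EWSR1-ERG pools, or 14.7, 4.90 and 2.84 CPM. Its pools thus followed the pattern of il1b, with replicate 1 alone beyond the intervals of the others (11.9 to 18.0 CPM against 3.26 to 7.08 and 2.00 to 3.92). The mean was 7.48 ± 6.34 CPM against 0.242 ± 0.211 (SD, n = 3 per group). The fitted log2 fold change was 4.70 (SE 1.03), and 3.73 without EWSR1-ERG replicate 1.

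The inhibitor gene nfkbiab (ENSDARG00000007693, chromosome 17) encodes an IkappaB alpha protein, itself a target of NF-kappaB. It stood at 71.3, 73.7 and 78.6 CPM in wild-type and 60.8, 58.8 and 58.6 CPM in EWSR1-ERG pools. The EWSR1-ERG pools were nearly equal, and all were lower. The means were 74.5 ± 3.74 and 59.4 ± 1.22 CPM (SD, n = 3 per group), 1.26-fold lower, with a fitted log2 fold change of -0.33 (SE 0.100).

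The interferon-stimulated gene isg15 (ENSDARG00000086374, chromosome 5) encodes a ubiquitin-like protein that is attached to other proteins. Its wild-type pools had 2, 3 and 0 counts, or 0.339, 0.581 and 0 CPM. Its EWSR1-ERG pools had 69, 43 and 57 counts, or 10.6, 7.52 and 4.38 CPM. The groups were 7.54-fold apart, and the EWSR1-ERG pools formed a graded series in which the intervals of neighbouring pools overlapped. The mean was 7.49 ± 3.09 against 0.306 ± 0.292 CPM (SD, n = 3 per group), 24.4-fold higher, with a fitted log2 fold change of 4.41 (SE 0.583). It was 5.11 without wild-type replicate 2, which held 3 of the 5 wild-type counts.

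The transcription factor gene irf7 (ENSDARG00000045661, chromosome 25), which in mammals drives type I interferon genes, stood at 4.06, 5.23 and 3.39 CPM in wild-type and 8.73, 7.00 and 5.84 CPM in EWSR1-ERG pools. The groups were only 1.12-fold apart, and the Poisson intervals of wild-type replicate 2 (3.44 to 7.60 CPM) and EWSR1-ERG replicate 3 (4.60 to 7.30) overlapped. The means were 4.23 ± 0.930 and 7.19 ± 1.46 CPM (SD, n = 3 per group), and the fitted log2 fold change was 0.73 (SE 0.254). Counts of irf7, which were 24, 27 and 15 in wild-type and 57, 40 and 76 in EWSR1-ERG pools, lay within 4 of those of CU633775.1 (ENSDARG00000092584) on the same chromosome in each library. Whether the gene models share reads was not examined, so the values of irf7 are uncertain.

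The spread between the EWSR1-ERG pools divided the 8 genes. The range of log2 CPM over these 3 pools was 2.30 in il1b, 2.26 in fosl1a, 1.66 in irg1l and 1.22 in isg15. Over all tested genes the median range was 0.36 and the 95th percentile 1.06, so these 4 genes lay above the 95th percentile. That percentile is over genes of any level, and ranges spread wider at low CPM. The EWSR1-ERG means of fosl1a, isg15 and il1b were only 7.48, 7.49 and 9.60 CPM. In isg15 the Poisson intervals of neighbouring pools also overlapped. No comparison was made with genes of like level. The range was 0.74 in ptgs2a, 0.74 in ccl34a.4 and 0.56 in irf7, at percentiles 72.7 to 85.3 of tested genes. In nfkbiab it was 0.05, at percentile 1.94. Between the wild-type pools the range was 0.09 in irg1l, 0.63 in ptgs2a, 0.58 in irf7 and 0.14 in nfkbiab. It was thus narrower than between the EWSR1-ERG pools in irg1l and ptgs2a and wider in irf7 and nfkbiab. In il1b, fosl1a, isg15 and ccl34a.4 the wild-type counts were too low to give a usable range.

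**Figure D2:**
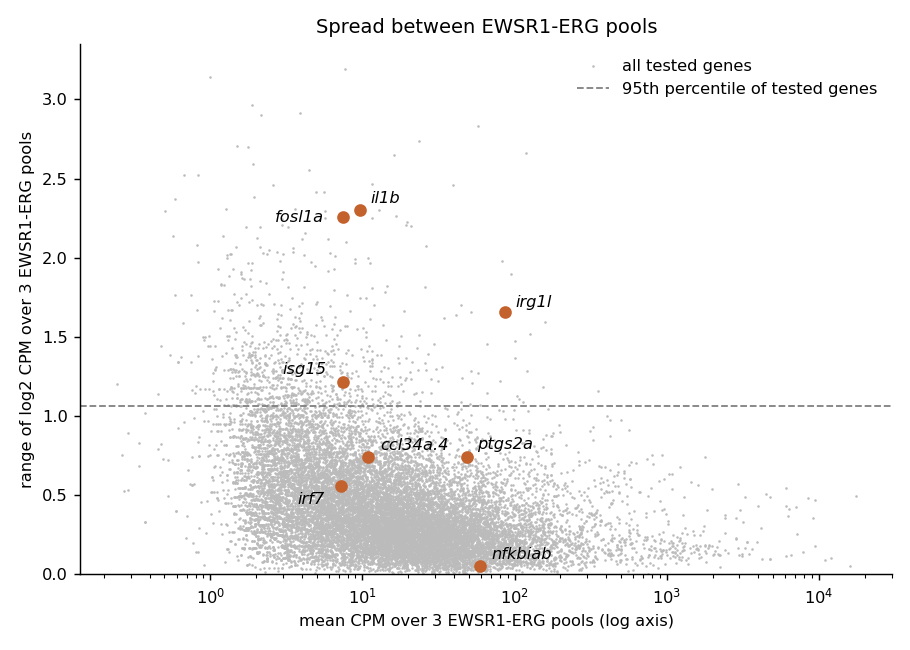
Range of log2 CPM over the 3 EWSR1-ERG pools (vertical axis) against the mean CPM of these pools (horizontal log axis) for 17557 tested genes (grey) and the 8 genes (orange), with the 95th percentile as a dashed line; the grey points spread wider at low CPM. Genes il1b (2.30), fosl1a (2.26), irg1l (1.66) and isg15 (1.22) lie above the line, and nfkbiab (0.05) lies near 0.

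The order of the EWSR1-ERG pools was the same in all 8 genes, with replicate 1 highest, replicate 2 next and replicate 3 lowest, also under relative log expression scaling. Of all tested genes 18.7% had this order, and of the 1309 genes called higher 44.8%. The Poisson intervals of replicates 2 and 3 overlapped in each of the 8 genes except irg1l, so the order of these pools is uncertain in the others. In nfkbiab and irf7 the interval of replicate 1 also overlapped both of these. Replicate 1 stood over the mean of the other EWSR1-ERG pools by 4.59-fold in il1b, 3.80-fold in fosl1a, 2.84-fold in irg1l, 1.78-fold in isg15, 1.63-fold in ptgs2a, 1.48-fold in ccl34a.4, 1.36-fold in irf7 and 1.04-fold in nfkbiab. The median of this ratio was 0.996 over all tested genes and 1.17 over the genes called higher. At least 2-fold was reached by 3 of the 8 genes, by 1.12% of tested genes and by 3.44% of the genes called higher. The 8 genes were chosen with this spread in view, so these shares are a description only. By their file names, replicates 1 and 2 came from the same lane. Replicate 3, the lowest in all 8 genes, was the deepest library and the only one from the other lane, which cannot be told apart. The part of lane and depth in these values was not tested.

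Among sums of cell type markers, those of neutrophils and neurons differed most between replicate 1 and the other EWSR1-ERG pools. Macrophage markers, with 8 of 8 found, summed to 29.2 to 35.5 CPM in wild-type pools and to 136, 113 and 106 CPM in EWSR1-ERG replicates 1, 2 and 3. Neutrophil markers, with 6 of 7 found, summed to 132 to 141 CPM in wild-type pools and to 368, 207 and 193 CPM in the EWSR1-ERG pools. Both sums were higher in every EWSR1-ERG pool than in any wild-type pool. Replicate 1 stood over the mean of the other EWSR1-ERG pools by 1.84-fold in the neutrophil sum. In the macrophage sum it did so by 1.24-fold, near the median of 1.17 over the genes called higher. The most abundant markers weigh most in such sums. Of the 5 neutrophil markers tested, 3 were highest in replicate 1 and 2 in replicate 2. For the 6 macrophage markers tested these counts were 4 and 2. Of the 6 macrophage markers tested 5 rose, and of the 5 neutrophil markers tested 3 rose and cpa5 fell, where 7.46% of all tested genes rose and 9.87% fell. The gene cpa5 is matched by name to the carboxypeptidase CPA1, so the neutrophil sum, which includes it, is not a measure of neutrophils alone.

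Neuron markers, with 9 of 10 found, ran the other way. Their sum was 924 to 1187 CPM in wild-type pools and 569 CPM in EWSR1-ERG replicate 1, against 775 and 779 CPM in replicates 2 and 3. Of 9 neuron markers tested 5 fell, against 9.87% of all tested genes. Epidermal markers, with 8 of 9 found, summed to 24722 to 40009 CPM in wild-type and 31820 to 33096 CPM in EWSR1-ERG pools, with replicate 1 at 0.992-fold of the others. Of 8 epidermal markers tested 1 rose and 1 fell. Endothelial markers, with 4 of 5 found, summed to 81.3 to 89.6 CPM in wild-type and 102 to 121 CPM in EWSR1-ERG pools. Replicate 1 stood at 1.17-fold of the others in this sum. Of 4 endothelial markers tested 2 rose and 0 fell, where 7.46% of all tested genes rose, and all 4 were highest in replicate 1. No found marker was at 0 in every library. The part of these cell types in the values of the 8 genes was not tested.

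**Figure D3:**
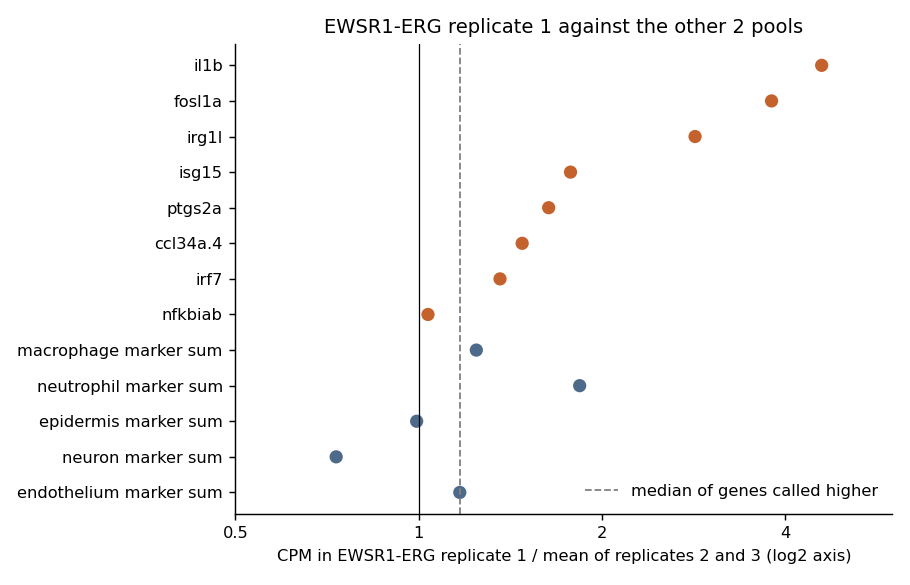
CPM in EWSR1-ERG replicate 1 divided by the mean of replicates 2 and 3 (horizontal log2 axis) for the 8 genes (orange) and for the summed markers of 5 cell types (blue); the dashed line is the median of genes called higher, 1.17. The ratio runs from 1.04 in nfkbiab to 4.59 in il1b, against 1.84 for the neutrophil sum and 0.732 for the neuron sum.

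Relatives of the 8 genes were followed by name. The gene irg1 (ENSDARG00000069844) rose with irg1l, from 0.616 ± 0.392 to 2.96 ± 0.882 CPM (SD, n = 3 per group; log2 fold change 2.28, SE 0.489, edgeR adjusted p = 0.00531), and was also highest in replicate 1. With 1, 4 and 4 wild-type counts, irg1 passed the filter only through the EWSR1-ERG pools. The constitutive cyclooxygenase gene ptgs1 rose from 12.12 ± 1.08 to 23.7 ± 8.04 CPM (0.94, SE 0.228, edgeR adjusted p = 0.0132), a call that ended without wild-type replicate 1 (0.87, edgeR adjusted p = 0.0741). The second inducible cyclooxygenase gene, ptgs2b, did not pass, at 7.15 ± 1.44 and 11.6 ± 6.34 CPM (0.69, SE 0.350, edgeR adjusted p = 0.222). Its counts in the EWSR1-ERG pools were 123, 41 and 113, against 37, 33 and 39 in the wild-type pools, so replicate 1 was again the highest.

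The AP-1 gene fosl2 rose from 16.5 ± 1.00 to 62.4 ± 19.8 CPM (1.90, SE 0.211, edgeR adjusted p = 0.000107). The 2 models named fosl1b were not tested, with at most 9 counts in a library. The IkappaB alpha gene nfkbiaa did not pass, at 29.0 ± 5.43 and 28.1 ± 4.62 CPM, and its log2 fold change of -0.04 (edgeR adjusted p = 0.889) turned to 0.12 without wild-type replicate 3. The transcription factor gene irf3 did not pass, with a log2 fold change of 0.64 (edgeR adjusted p = 0.259). Among the other genes named ccl34, ccl34b.1 was the only one tested, at 9.19 ± 0.811 and 7.88 ± 1.53 CPM (-0.21, edgeR adjusted p = 0.543). Of those below the filter, ccl34a.3 on chromosome 2 had 0, 0 and 1 counts in wild-type and 10, 6 and 9 in EWSR1-ERG pools, and ccl34b.3, ccl34b.4, ccl34b.8 and ccl34b.9 had at most 4 counts in any library.

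**Figure D4:**
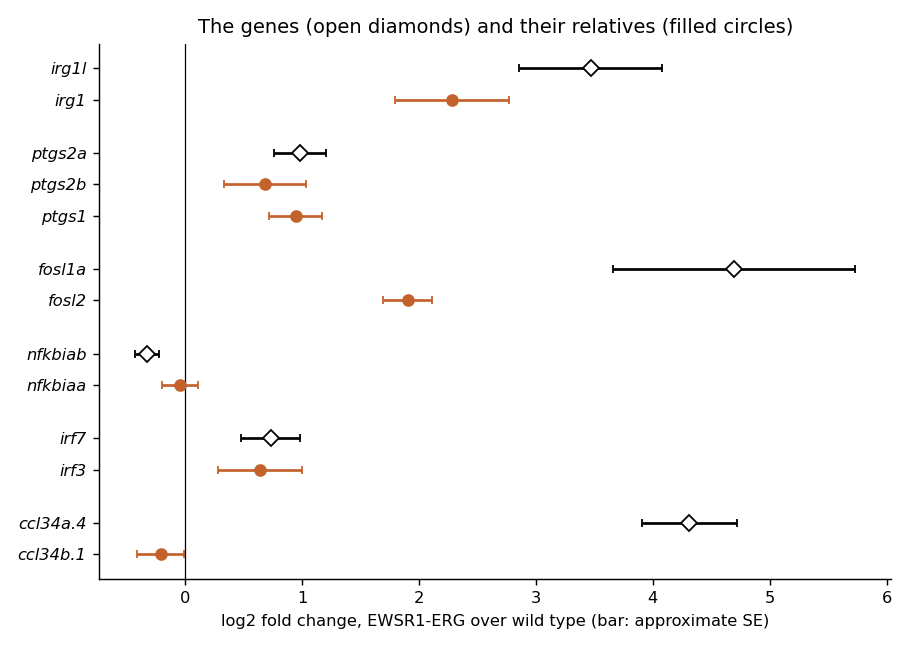
Log2 fold change of EWSR1-ERG over wild-type pools (horizontal axis, with an approximate SE) for 6 of the 8 genes (open diamonds, no test) and their named relatives (filled circles). The inhibitor nfkbiab lies at -0.33 and nfkbiaa at -0.04, while irg1l (3.47) and irg1 (2.28) both lie to the right.

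The other genes of these pathways were taken from 7 lists, without the 8 genes. Of 127 tested, 34 rose, 0 fell and 93 did not pass by edgeR, where 7.46% of all tested genes rose and 9.87% fell. At an unadjusted p under 0.05 there were 45 higher and 5 lower genes by edgeR. The shares of all tested genes at that unadjusted p were not counted, so these counts have no background here. DESeq2 called 0 lower and limma-voom 1. The median log2 fold change was 0.25, against 0.00 over all tested genes. Of the 34 that rose, 29 were highest in EWSR1-ERG replicate 1, as were 70.7% of all genes called higher. Those that rose include irg1, bcl3 and tmem173, which passed the filter only through the EWSR1-ERG pools. The lists were chosen with earlier results of these data known.

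In the AP-1 family 6 of 9 tested genes rose, with a median log2 fold change of 1.54, and this count was 6 under each of the 12 alternatives. The stress-induced gene atf3, a dimer partner of Jun, rose from 9.55 ± 0.683 to 57.2 ± 14.7 CPM (2.56, SE 0.191, edgeR adjusted p = 1.18e-06). The immediate early gene fosab, listed as fos, rose from 11.4 ± 1.46 to 33.8 ± 6.56 CPM (1.54, SE 0.175, edgeR adjusted p = 3.23e-05), and the Jun family gene junba from 12.6 ± 1.31 to 68.5 ± 23.5 CPM (2.43, SE 0.237, edgeR adjusted p = 6e-05). With fosl2, the others that rose were the Jun family genes junbb (2.36) and jun (0.79), picked after seeing their values. The gene fosaa did not pass, at 7.74 ± 2.22 and 6.64 ± 0.972 CPM (-0.23, edgeR adjusted p = 0.571). All 6 that rose were highest in replicate 1, but by 1.25-fold to 1.84-fold over the mean of the other pools, against 3.80-fold in fosl1a.

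In the NF-kappaB pathway 5 of 24 tested genes rose, with a median of 0.25, and 3 did without wild-type replicate 2. Those with the smallest p encode a subunit of NF-kappaB (nfkb2) and atypical nuclear IkappaB proteins (nfkbiz and bcl3). The gene nfkbiz rose from 11.99 ± 1.82 to 23.3 ± 5.47 CPM (0.95, SE 0.188, edgeR adjusted p = 0.00306), nfkb2 from 18.7 ± 2.02 to 29.4 ± 1.09 CPM (0.65, SE 0.130, edgeR adjusted p = 0.00336) and bcl3 from 0.511 ± 0.400 to 3.96 ± 2.28 CPM (2.86, SE 0.581, edgeR adjusted p = 0.00421). With 2, 5 and 1 wild-type counts, bcl3 passed the filter only through the EWSR1-ERG pools. The remaining ones that rose, picked after seeing their values, were the Toll adaptor myd88 (0.77) and the inhibitor nfkbie (0.56). The ubiquitin ligase gene birc2 did not pass, at 100.2 ± 3.85 and 115 ± 4.80 CPM (0.20, edgeR adjusted p = 0.200). Among the IkappaB genes of the list, nfkbiz, bcl3 and nfkbie thus rose, while nfkbiaa did not pass. Nor did nfkbib, picked after seeing its values (0.24, edgeR adjusted p = 0.277). The gene nfkbiab, described above, lay lower in every EWSR1-ERG pool.

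Among cytokine and chemokine ligands 5 of 17 tested genes rose, with a median of 0.22. The chemokine gene cxcl18b, listed as cxcl-c1c, rose from 2.04 ± 0.601 to 16.3 ± 3.08 CPM (2.99, SE 0.261, edgeR adjusted p = 2.84e-06). The chemokine gene cxcl12a, which guides migrating cells, rose from 95.4 ± 5.77 to 155 ± 14.4 CPM (0.71, SE 0.109, edgeR adjusted p = 0.000451) and was highest in replicate 3. Its paralog cxcl12b, picked after seeing its values, did not pass (-0.44, edgeR adjusted p = 0.0728). In cxcl12b every EWSR1-ERG pool lay below every wild-type pool. The chemokine gene ccl25b rose by 0.56 (edgeR adjusted p = 0.00404). The ligand cxcl14 did not pass, at 67.5 ± 12.5 and 74.8 ± 4.77 CPM (0.15, edgeR adjusted p = 0.482).

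A further 22 ligand genes were below the filter, and 9 of the 39 ligands found rose when no filter was used. Picked after seeing their values, the interleukin gene il11a had 0 counts in each wild-type pool, which allows up to 3 counts, and 11, 10 and 16 in the EWSR1-ERG pools (edgeR adjusted p = 7.09e-05 with no filter). The tumour necrosis factor gene tnfb had 1, 3 and 6 counts in wild-type and 37, 20 and 22 in EWSR1-ERG pools (edgeR adjusted p = 0.0101 with no filter), whereas tnfa had 0 in all 6. Of the 100 pathway genes below the filter, 95 had a count in some library. When no filter was used, 6 of the 100 rose: these 2 ligands, ccl34a.3, ccl20b, the receptor gene il10ra and stat1b. The share that rose among all genes below the filter was not counted. In the main fit 7.46% of tested genes rose, so 6 of 100 is no sign of an excess.

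Of 21 cytokine and chemokine receptor genes 7 rose, with a median of 0.49. The receptor gene cxcr3.2 rose from 2.99 ± 0.769 to 10.4 ± 1.65 CPM (1.79, SE 0.249, edgeR adjusted p = 0.000206), the Cxcl12 receptor gene cxcr4a from 6.14 ± 1.46 to 15.2 ± 1.56 CPM (1.34, SE 0.201, edgeR adjusted p = 0.00038), and the tumour necrosis factor receptor gene tnfrsf1a from 16.5 ± 3.19 to 51.8 ± 18.6 CPM (1.64, SE 0.263, edgeR adjusted p = 0.00241). Unlike tnfrsf1a, cxcr4a was not highest in replicate 1. The paralog cxcr4b, picked after seeing its values, did not pass (-0.34, edgeR adjusted p = 0.370). The receptor subunit gene crfb6 did not pass (0.21, edgeR adjusted p = 0.310).

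Of 19 prostaglandin and leukotriene genes other than ptgs2a 4 rose, with a median of 0.16. The prostaglandin E synthase gene ptges, which acts on the product of the cyclooxygenases, rose from 1.503 ± 0.522 to 5.72 ± 1.81 CPM (1.84, SE 0.359, edgeR adjusted p = 0.00276). The prostaglandin D synthase gene ptgdsb rose from 36.0 ± 4.81 to 102 ± 39.9 CPM (1.504, SE 0.248, edgeR adjusted p = 0.00299). With ptgs1, the leukotriene gene lta4h also rose (0.39), picked after seeing its value. The gene pla2g12b, listed here for its name in the phospholipase A2 family, did not pass, at 218 ± 27.3 and 200 ± 23.3 CPM (-0.12, edgeR adjusted p = 0.556).

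In the interferon list, 5 of 23 tested genes other than isg15 and irf7 rose, with a median of 0.22, and 2 did without wild-type replicate 1. Without wild-type replicate 2 or EWSR1-ERG replicate 2 the count was 3. The gene irf8, a transcription factor of the macrophage lineage, rose from 1.72 ± 0.270 to 10.2 ± 1.37 CPM (2.53, SE 0.260, edgeR adjusted p = 1.28e-05). The interferon signalling factor irf9 rose from 10.6 ± 1.78 to 23.3 ± 0.929 CPM (1.14, SE 0.157, edgeR adjusted p = 0.000195). The gene tmem173 of the cytosolic DNA pathway rose by 1.40 (edgeR adjusted p = 0.0160), a call that ended without wild-type replicate 1 (1.25, edgeR adjusted p = 0.0904) or 2 (1.35, edgeR adjusted p = 0.0809) and by DESeq2 (1.42, adjusted p = 0.0913). Counts of tmem173 also lay within 5 of those of BX005069.4 on the same chromosome in each library, so its values are uncertain. With 5, 5 and 6 wild-type counts, tmem173 passed the filter only through the EWSR1-ERG pools. The kinase gene tbk1 did not pass, at 45.1 ± 1.56 and 52.1 ± 4.79 CPM (0.20, edgeR adjusted p = 0.250).

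Other interferon genes were set beside isg15, mostly ones that did not pass. They do not stand for the whole list, in which 5 of 23 tested genes rose and 0 fell. In that list 19 tested genes had a positive log2 fold change. The signal transducers of interferon receptors stat1a (0.10, edgeR adjusted p = 0.652) and stat2 (-0.28, edgeR adjusted p = 0.329), picked after seeing their values, did not pass. The effector gene mxc, also picked after seeing its values, did not pass, at 2.75 ± 1.93 and 3.96 ± 0.815 CPM (SD, n = 3 per group; 0.56, edgeR adjusted p = 0.379). The other 11 listed effector genes of the mx, rsad2, ifit and ifi44 families, all below the filter, summed to 3.39, 1.94 and 3.39 CPM in wild-type and to 3.22, 3.50 and 2.30 CPM in EWSR1-ERG pools, so the groups overlapped. No gene of this set had more than 10 counts in a library. This choice of families was not part of the planned lists, and other listed interferon genes below the filter were left out of the sum. Picked after seeing their values, usp18 leaned higher with no filter (1, 0 and 2 counts in wild-type, 5, 6 and 5 in EWSR1-ERG pools, edgeR adjusted p = 0.259). So did gig2p (3, 0 and 2 against 12, 6 and 6 counts, edgeR adjusted p = 0.183). In gig2e the groups overlapped (log2 fold change -0.40, edgeR adjusted p = 0.707 with no filter). It stood at 0.847, 1.35 and 1.13 CPM in wild-type and at 0.613, 0.875 and 0.921 CPM in EWSR1-ERG pools. The 5 interferon genes themselves together had 1 to 3 counts in wild-type and 2 to 5 counts in EWSR1-ERG libraries, so a difference in them was not detectable at this depth. The paralog stat1b, below the filter, had 2, 1 and 2 counts in wild-type and 36, 15 and 17 in EWSR1-ERG pools (edgeR adjusted p = 0.00154 with no filter).

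Among pattern recognition and inflammasome genes 2 of 14 tested rose, with a median of 0.11. They were irg1 and the macrophage scavenger receptor gene marco, which went from 2.39 ± 0.897 to 15.1 ± 5.46 CPM (2.63, SE 0.341, edgeR adjusted p = 0.0002). The nuclear protein gene hmgb1a, an alarm signal when released, did not pass, at 463 ± 29.7 and 431 ± 46.3 CPM (-0.10, edgeR adjusted p = 0.609). The inflammasome genes that act upstream of mature interleukin 1 beta, picked after seeing their values, did not pass either. They were pycard, an adaptor (0.14, edgeR adjusted p = 0.669), and the caspase genes caspa (0.58, edgeR adjusted p = 0.0868) and caspb (0.07, edgeR adjusted p = 0.780).

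**Figure D5:**
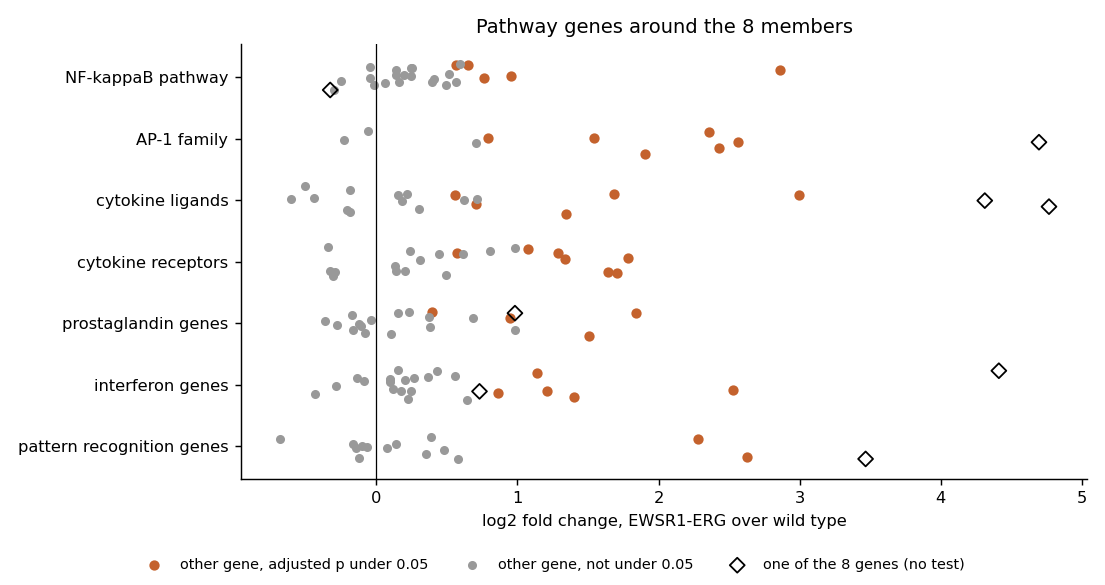
Log2 fold change of EWSR1-ERG over wild-type pools (horizontal axis) for the tested genes of 7 pathway lists (rows; vertical jitter is random), with genes under the adjusted p of 0.05 in orange, others in grey and the 8 genes as open diamonds without a test. Orange points lie only to the right of 0; in the AP-1 row they are 6 of 9 genes.

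Likeness to il1b and isg15 was described by the distance between log2 CPM profiles over the 6 libraries, each centred on its mean. The nearest profiles to il1b were those of ENSDARG00000093010 (distance 1.24), CU638695.1 (1.25), zgc:172053 (1.44), irg1l (1.49) and zgc:172290 (1.54), against a median of 5.18 over tested genes. Of these, ENSDARG00000093010 and zgc:172053 lie on chromosome 9 and had nearly the same counts, 144, 71 and 170 against 144, 71 and 166 in the EWSR1-ERG pools, so they may not be separate measurements. CU638695.1 on chromosome 11 stood at 25.6, 9.27 and 7.22 CPM in the EWSR1-ERG pools and 1.86, 0.774 and 1.36 CPM in the wild-type pools, with replicate 1 apart as in il1b. In ENSDARG00000093010 replicate 1 was also highest, at 22.1 CPM, but replicate 3 (13.1 CPM) lay above replicate 2 (12.4 CPM).

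The nearest profiles to isg15 were those of fosl1a (0.916), zgc:153723 (0.989), the Polycomb gene cbx7a (1.18), si:dkey-8k3.2 (1.33) and hsp70.3, listed as hsp70l (1.37), against a median of 4.82. In cbx7a the EWSR1-ERG pools stood at 136.9, 93.8 and 66.6 CPM and in si:dkey-8k3.2 at 119.6, 104 and 89.9 CPM, in the order of replicates 1, 2 and 3 seen in isg15. In hsp70.3 they stood at 180.2, 122 and 153 CPM, with replicate 3 above replicate 2. These profiles share the libraries and the step between the groups. The ranking rests in part on wild-type counts of 0 to 4 in il1b and 0 to 3 in isg15: with a prior count of 0.5 in place of 2, 3 of the 5 genes nearest to il1b and 2 of the 5 nearest to isg15 were shared.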

How the data were processed

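Per the submitters' processing notes, Bowtie2, SAMtools, DESeq and the Zv9 build were used; their versions, the annotation, the counter and use of strand are not stated there. The deposited files hold counts of reads per Ensembl gene, handled here as estimated counts because the last line of each is a size factor, which was not applied; every gene value was whole, so rounding altered none. Each file's blank line and size factor line, 2 in all, were dropped.

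Genes were kept by filterByExpr (minimum count 10, minimum total 15), scaled by TMM and tested with edgeR 4.0.16 (robust quasi-likelihood F test, Benjamini-Hochberg over 17557 genes, threshold 0.05; no covariate); alternatives used limma 3.58.1 and DESeq2 1.42.0, other scaling and filters, a replicate block and leaving out each pool. CPM are per TMM-scaled total of the tested genes; log2 CPM used a prior count of 2. The SE of a log2 fold change is its size divided by the root of F, an approximation. Of 318 list entries 273 were matched by name. The members and lists were chosen with earlier results of these data known. Named were the 8 genes, relatives fixed by name, in each list the 3 called genes with the smallest p and the most abundant gene not called, and the 5 profiles nearest to il1b and to isg15.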

Additional observations from a re-analysis of the deposited data

How the results depend on the processing

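Counts of genes called over the whole table were 1309 higher and 1732 lower; leaving out 1 pool gave 646 to 1334 higher and 981 to 1668 lower, with the lowest counts without wild-type replicate 2 (646 and 981) and then without wild-type replicate 1 (718 and 1135). Among pathway genes 34 rose, and 27 to 38 did when 1 pool was left out; the 0 lower genes became 1 with no filter, 1 with limma-voom and 1 with the replicate block, and 0 to 1 when 1 pool was left out. Leaving out EWSR1-ERG replicate 3, which keeps the libraries of 1 lane, gave 38. The log2 fold changes when 1 pool was left out ran from 3.65 to 6.24 in il1b, 3.73 to 5.15 in fosl1a and 2.77 to 3.77 in irg1l, and no sign turned among the 8 genes. That of nfkbiaa, not called, turned without wild-type replicate 3 (0.12), EWSR1-ERG replicate 2 (0.01) or EWSR1-ERG replicate 3 (0.05) and was lowest at -0.18. With a prior count of 0.5 the wild-type log2 ranges became 3.35 in il1b, 2.65 in fosl1a, 3.15 in isg15 and 1.87 in ccl34a.4, a measure that low counts make unstable. Of the 5 nearest profiles, 3 for il1b and 2 for isg15 were shared at that prior, a check chosen after seeing the data. The call of CU638695.1 ended with no filter (3.32) and without wild-type replicate 3 (3.32).

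With the replicate block 34 pathway genes rose and 1066 genes rose and 1482 fell in all; same-numbered pools correlated at -0.12, 0.09 and -0.02 in their deviations from the group means, so the numbers give no sign of pairing. The low wild-type counts of il1b, fosl1a, isg15 and ccl34a.4, 4 to 8 in all, limit the precision of their fold changes.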
